A study of Mus musculus with 32 samples.

Results

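The nuclear genome encodes most subunits of the oxidative phosphorylation system, and their transcripts were compared in mouse liver. The genes were chosen by name, as protein-coding genes off the mitochondrial chromosome. Their symbols match those used for subunits of complex I (Nduf), II (Sdh), III (Uqcr), IV (Cox4 to Cox8) or V (Atp5). The rule found 84 of the 35275 genes in the deposited table: 37 for complex I, 4 for complex II, 8 for complex III, 18 for complex IV and 17 for complex V. Of these, 81 were among the 14438 genes with enough counts to be tested. Cox4i2, Cox7b2 and Cox8c were not, and the last 2 had no count in any library. Complexes are assigned by symbol throughout. Ndufa4 is thus counted in complex I, and Atp5s and Atp5sl in complex V, although Ndufa4 and Atp5sl are now placed elsewhere.

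Whole livers of 32 male mice (C57BL/6, 16 weeks old) gave 1 polyA RNA library each. The mice were Fatp2-/- (KO) or wild-type controls (WT), were fed from 12 weeks of age on a ketogenic (KD) or control-ketogenic diet (CD), and had been fasted for 24 h or 4 h. The 8 groups of 4 animals were KO KD 24 h, KO CD 24 h, KO KD 4 h, KO CD 4 h, WT KD 24 h, WT CD 24 h, WT KD 4 h and WT CD 4 h. The labels do not say in which cells Fatp2 was disrupted or how the mice were littered. Fatp2 takes up long-chain fatty acids and activates very long-chain ones, so the design sets a loss of fatty acid handling against feeding states in which the liver burns fat. Slc27a2, the gene of Fatp2, lay between 121 and 318 CPM (counts scaled to normalised library size) in KO libraries and between 905 and 2230 CPM in WT libraries.

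In oxidative phosphorylation, complexes I and II pass electrons from NADH and succinate to coenzyme Q, complex III passes them on to cytochrome c, and complex IV to oxygen. Complexes I, III and IV pump protons, and complex V, the ATP synthase, uses the gradient. Complexes I, III, IV and V are built from subunits of both genomes, and complex II from nuclear subunits only. Liver depends on the system to reoxidise the carriers reduced by fatty acid oxidation, which supplies ketone body synthesis in fasting and on ketogenic diets.

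The shallowest library, replicate 2 of WT KD 24 h, had 13406678 counts and the deepest, replicate 3 of KO CD 4 h, 24700310, so that 3 counts correspond to 0.112 to 0.23 CPM. In 4 libraries, KO CD 24 h replicates 1 and 2, KO KD 4 h replicate 4 and WT CD 24 h replicate 1, skeletal muscle markers summed to 375, 862, 747 and 468 CPM, against 4.12 to 11.4 CPM in the other 28. Acta1, skeletal muscle actin, was at 78.4 to 178 CPM in the 4 and at most 0.504 CPM elsewhere. Over the 2000 most variable genes, 5 libraries lay nearer to the mean of the other diet than to that of their own: KO KD 24 h replicate 4, KO CD 24 h replicates 3 and 4, and WT CD 24 h replicates 3 and 4. One alternative left out replicate 4 of KO KD 24 h and of KO CD 24 h, chosen from earlier results, and another, chosen after seeing the data, all 5. Title numbers run in separate ranges by genotype and fasting time, and a batch behind them, if any, cannot be told apart from these factors. Within their groups the 5 libraries carry the highest title numbers, set apart from those of the other replicates; what the numbers stand for is not given in the sources used here, and their part in the results was not tested. The liver markers were present throughout, with Alb, serum albumin, at 17000 CPM or more in every library. In whole liver, fewer cells of a type and less RNA per cell cannot be told apart.

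Levels spanned several orders of magnitude, and 74 of the 84 genes averaged over 10 CPM across the 32 libraries. Per kilobase of gene length, the highest mean level of complex I belonged to Ndufa4 (905 CPM per kb), a small subunit now usually placed in complex IV, and the lowest to Ndufb2 (0.779 CPM per kb). For complex II these were Sdhb, the iron-sulfur subunit (196), and Sdhc, a membrane anchor (59.2). For complex III they were Uqcr11 (368) and Uqcrc2, a core protein (119), and for complex IV, among genes with any count, Cox6a1 (766) and Cox4i2, the isoform known from lung (0.0922). For complex V they were Atp5b, the catalytic beta subunit (591), and Atp5s (6.18). Ndufb2, a membrane arm subunit, had 2.03 to 5.45 CPM in every library. Part of its exon bases (7.9%) overlap another gene, on the same strand in part, so its count is uncertain. Exons of 19 of the genes overlap those of another gene by over 5% of their bases, the most being Atp5o (47.9%), Ndufb6 (39.0%) and Ndufa13 (30.0%). Reads of such pairs could not be separated, because the strand setting of the counting is not given in the sources used here.

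The isoform pairs followed the order known for adult liver. Cox6a1, the liver isoform, averaged 766 CPM per kb and Cox6a2, the heart and muscle isoform, 2.22. Cox7a2 (213) and Cox8a (517) likewise stood far above the muscle isoforms Cox7a1 (7.33) and Cox8b (4.18). Cox6b1 averaged 406 CPM per kb and Cox6b2, known as the testis isoform, 3.39. Cox4i1 averaged 507 CPM per kb. Of the genes for the identical mature c subunit of complex V, Atp5g3 averaged 507 CPM per kb, Atp5g2 108 and Atp5g1 36.9. Without scaling by length the order was Atp5g3 (437 CPM), Atp5g1 (174 CPM) and Atp5g2 (81.3 CPM). The deposited gene length is 4715 bases for Atp5g1 and 753 for Atp5g2. Ndufa4l2, a relative of Ndufa4 known as induced by hypoxia, averaged 1.86 CPM per kb. Cox7a2l, known as a factor in supercomplexes of III and IV, averaged 116 CPM per kb. Whether its product acts in this way in these mice was not measured.

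Promoters are shown for 4 of the genes on which the results turn: Cox7c and Sdha, whose levels moved in opposite directions between animals of a group, and Cox6b2 and Atp5s, which differed most often between groups. They are the 250 bases before the start of transcription in RefSeq (build GRCm38.p6), read 5′ to 3′ on the strand of the gene. Cox7c lies at chr13:86046796-86047045 (minus strand), Sdha at chr13:74350241-74350490 (minus), Cox6b2 at chr7:4753095-4753344 (minus) and Atp5s, in RefSeq under its current name Dmac2l, at chr12:69724695-69724944 (plus). Capitals mark the motifs found on either strand, described after the sequences.
Cox7c: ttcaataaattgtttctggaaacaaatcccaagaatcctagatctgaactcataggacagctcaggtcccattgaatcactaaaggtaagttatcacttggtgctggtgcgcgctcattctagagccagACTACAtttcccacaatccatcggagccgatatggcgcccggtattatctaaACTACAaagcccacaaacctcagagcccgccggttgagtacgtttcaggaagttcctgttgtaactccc
Sdha: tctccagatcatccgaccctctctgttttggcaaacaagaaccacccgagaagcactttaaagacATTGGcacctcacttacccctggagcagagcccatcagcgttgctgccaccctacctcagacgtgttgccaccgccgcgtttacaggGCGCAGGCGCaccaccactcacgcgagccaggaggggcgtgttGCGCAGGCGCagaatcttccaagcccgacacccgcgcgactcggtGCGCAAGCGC
Cox6b2: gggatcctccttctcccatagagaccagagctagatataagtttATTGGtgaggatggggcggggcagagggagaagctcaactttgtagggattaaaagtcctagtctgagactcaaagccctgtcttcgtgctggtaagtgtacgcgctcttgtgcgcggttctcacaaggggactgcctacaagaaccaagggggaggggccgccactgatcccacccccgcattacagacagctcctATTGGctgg
Atp5s: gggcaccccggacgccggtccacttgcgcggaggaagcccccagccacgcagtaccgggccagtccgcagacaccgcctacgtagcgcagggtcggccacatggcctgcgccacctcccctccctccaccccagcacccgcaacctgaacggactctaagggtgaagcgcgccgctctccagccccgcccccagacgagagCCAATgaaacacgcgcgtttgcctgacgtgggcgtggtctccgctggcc
The capitals in Cox7c are ACTACA, the core shared by ZNF143 and THAP11 sites, 121 and 69 bases before the start. Those in Sdha are 3 matches to the NRF1 motif (GCGCA, any base, GCGC), 98, 55 and 10 bases before the start, and a CCAAT box on the opposite strand 185 bases before it. Those in Cox6b2 are CCAAT boxes on the opposite strand, 206 and 9 bases before the start, and the one in Atp5s is a CCAAT box 49 bases before it.

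A RefSeq promoter (250 bases before to 50 after the start) was found for 69 of the 84 genes. The NRF1 motif was present in 24.6% of them, against 5.19% of the 27025 genes with a promoter in the table. CCGGAAG, the core of ETS and GABP sites, was in 23.2% against 9.93%, AAGATGG, the YY1 core, in 17.4% against 7.28%, and AAGGTCA, the core bound by estrogen-related receptors, in 11.6% against 5.38%. ACTACA was in 20.3% against 11.8%. AGGTCA, which every AAGGTCA contains, was in 23.2% against 18.1%, and CCAAT in 44.9% against 41.1%. Both strands were searched, the motifs were chosen after the promoters had been seen, and a match is a run of letters, not a bound site. The 27025 genes were not limited to those tested in these livers. A gene was counted when any of its promoters matched, with 32851 promoters in the table. The percentages therefore do not compare the subunit genes with other genes of like expression.

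Summed over their genes, complexes I, III, IV and V had their highest mean in KO KD 24 h livers. Complex I genes summed to 5396 ± 241 CPM in KO KD 24 h, 4391 ± 857 in KO CD 24 h, 4092 ± 990 in KO KD 4 h, 3495 ± 466 in KO CD 4 h, 4016 ± 1080 in WT KD 24 h, 3906 ± 704 in WT CD 24 h, 4171 ± 578 in WT KD 4 h and 3477 ± 277 in WT CD 4 h (SD, n = 4 each). Complex IV genes summed to 3897 ± 290 CPM in KO KD 24 h and 2758 ± 868 in WT KD 24 h, and ranged between group means of 2308 and 3194 in the other groups. Complex III genes summed to 2528 ± 134 CPM in KO KD 24 h and 1853 ± 463 in WT KD 24 h. For complexes I, III and IV the lowest KO KD 24 h library lay below the highest WT KD 24 h library, so the groups overlapped except in their means.

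Complex II genes summed to 1156 to 1286 CPM in KO KD 24 h libraries and to 913.7 to 1001 CPM in WT KD 24 h libraries, which did not overlap. Complex V genes summed to 5255 to 6273 CPM in KO KD 24 h and to 4173 to 4981 CPM in WT KD 24 h, again without overlap; the complex V mean was 5716 ± 421 CPM in KO KD 24 h, and the next highest was that of WT CD 24 h, at 5307 ± 462 CPM. The highest mean of complex II was that of KO CD 4 h (1227 ± 103 CPM), close to KO KD 24 h (1210 ± 57) and WT CD 4 h (1155 ± 86.1), and these 3 did not differ beyond their spread.

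**Figure D1:**
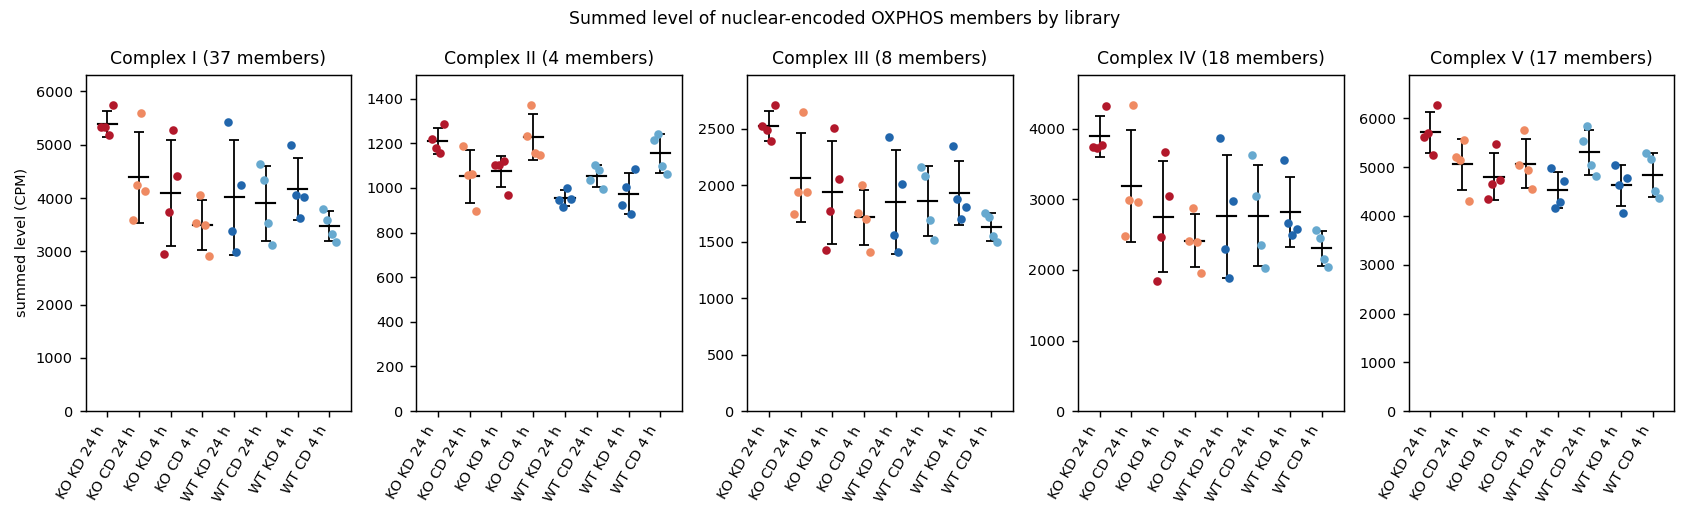
Summed level (CPM) of the nuclear-encoded genes of each complex in each library, by group; points are livers, and the line and bars give the mean and SD of 4. KO KD 24 h livers lie at 5186 to 5744 CPM for complex I, while WT KD 24 h livers spread over 2991 to 5434 CPM.

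Within groups, the levels of most subunit genes followed how much of the library came from the mitochondrial chromosome. That share was 4.86% in the lowest and 15.5% in the highest library, both KO animals, and it differed widely between animals of the same group. Each gene's deviation from its group mean, on the log2(CPM + 0.1) scale, was related to the deviation of the log2 share over the 32 libraries, with a permutation test within groups (two-sided, 100000 draws; the smallest p it can give is 1e-05) and adjustment over all 14438 genes. Of the 81 genes, 55 were positively related (67.9%, against 15.8% of all genes) and 7 negatively (8.64%, against 18.8%), with both Pearson's r and Spearman's rho passing. The median r was 0.77 for the subunit genes and -0.01 for all genes. Both levels are shares of the same library, so that they share its total.

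Small subunits were the most closely related. Cox7c, a small complex IV subunit (ENSMUSG00000017778, chromosome 13, 86044816 to 86046904, minus strand, GRCm38), had r = 0.94 and rho = 0.92 (adjusted permutation p = 0.000168 and 0.000295 over 14438 genes), and r = 0.93 without the 2 libraries farthest from the median share. In KO KD 4 h livers Cox7c was at 188, 319, 494 and 432 CPM in replicates 1 to 4, and the mitochondrial share was 4.86% in the first, the lowest, and 12.4% in the last. In KO CD 24 h livers Cox7c was at 649 CPM in replicate 3, where the share was 15.5%, and at 250 CPM in replicate 1, where it was 6.46%. In both groups the library with the lowest share had the lowest Cox7c. Cox6c (r = 0.92), Ndufb6 (0.92), an accessory subunit of the membrane arm of complex I, and Ndufa4 (0.89) behaved alike.

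Sdha ran the other way. It encodes the flavoprotein that oxidises succinate (ENSMUSG00000021577, chromosome 13, 74322254 to 74350280, minus strand), and had r = -0.93, rho = -0.87 and r = -0.92 without the 2 farthest libraries. It was at 612, 487, 348 and 320 CPM in KO KD 4 h livers and at 222, 356, 488 and 324 CPM in WT KD 24 h livers, where the share was highest in the first (10.2%) and lowest in the third (4.94%). Low Sdha thus stood beside a high share in both groups. The other 6 negatively related genes were Ndufs1 (r = -0.83), Ndufv1 (-0.74) and Ndufa9 (-0.63) of complex I, Uqcrc1 (-0.74) of complex III, and Atp5b (-0.83) and Atp5a1 (-0.81) of complex V. Ndufs1 and Ndufv1 carry iron-sulfur clusters and flavin in the arm that oxidises NADH, Uqcrc1 is a core protein, and Atp5a1 and Atp5b form the catalytic head of ATP synthase. No related gene changed the sign of r when the 2 farthest libraries were left out.

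**Figure D2:**
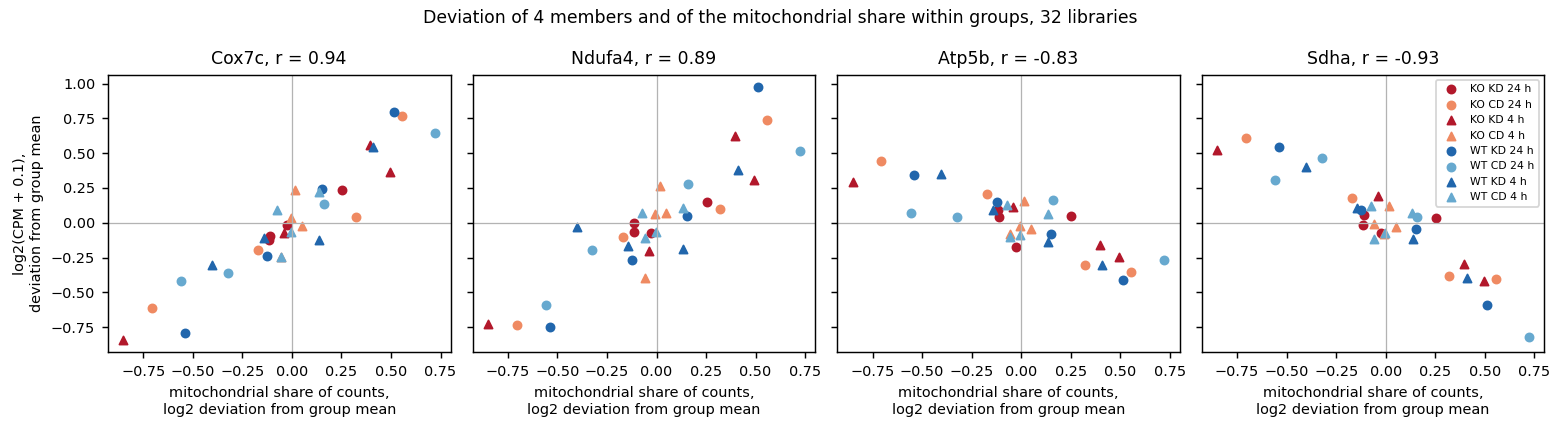
Each library's deviation from its group mean: log2 mitochondrial share of counts on the x axis, log2(CPM + 0.1) of Cox7c, Ndufa4, Atp5b and Sdha on the y axis, 32 libraries coloured by genotype and diet with circles for 24 h and triangles for 4 h. The first 2 genes rise with the share (r = 0.94 and 0.89) and the last 2 fall (r = -0.83 and -0.93).

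By complex, without a test of the differences between complexes, complex I had 27 positively and 3 negatively related of 37 genes, complex II 2 and 1 of 4, complex III 5 and 1 of 8, complex IV 10 and 0 of 15, and complex V 11 and 2 of 17. As a description, the summed level of complex IV genes had r = 0.88 and rho = 0.83 with the share and that of complex I r = 0.84 and rho = 0.79. For complex III r was 0.82 and rho 0.81, for complex V r was 0.41 and rho 0.44, and for complex II r was -0.33 and rho -0.26. The 19 genes that did not pass had r between -0.50 (Atp5d, the delta subunit of ATP synthase) and 0.59 (Cox7a1), among them Ndufs3 (0.15), Ndufa10 (-0.32), Uqcrc2 (-0.37) and Atp5sl (0.08).

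The sign of the relation went with the length of the transcript. Among subunit genes whose principal transcript is under 1000 bases, 41 of 51 were positively and 0 negatively related, with a median r of 0.83. Between 1000 and 2000 bases, 13 and 4 of 22 were, with a median of 0.69, and over 2000 bases 1 and 3 of 8, with a median of -0.12. All tested genes with a known length showed the same order at lower values: median r was 0.59 for the 860 genes under 1000 bases, 0.16 for the 2942 between and -0.17 for the 9294 over 2000. Cox7c has 540 bases and Sdha 2900. Atp5g1 (2675 bases, r = 0.67), Ndufs4 (1698, 0.89) and Ndufv2 (1697, 0.91), the last 2 in the NADH-oxidising arm of complex I, were positively related despite their length.

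**Figure D3:**
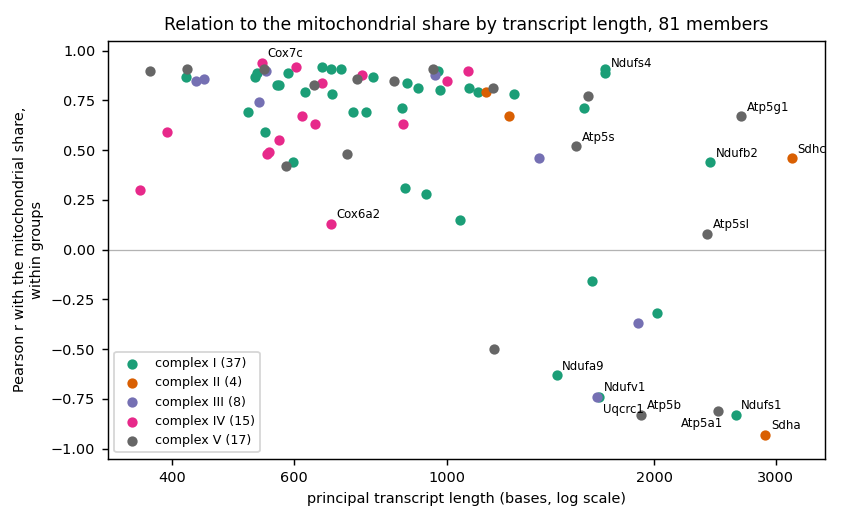
Pearson r of each of the 81 tested genes with the mitochondrial share within groups (y axis) against the length of its principal transcript in bases (x axis, log scale), coloured by complex. Genes under 1000 bases lie above 0, while the lowest values, such as -0.93 for Sdha, belong to transcripts over 1000 bases.

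The mitochondrial share also differed between groups, and its values stand here beside all contrasts that follow. It averaged 11.3% ± 1.43 in KO KD 24 h, 11.1% ± 4.0 in KO CD 24 h, 9.32% ± 3.4 in KO KD 4 h, 5.44% ± 0.169 in KO CD 4 h, 7.44% ± 2.25 in WT KD 24 h, 8.11% ± 3.32 in WT CD 24 h, 11.7% ± 2.82 in WT KD 4 h and 6.01% ± 0.403 in WT CD 4 h (SD, n = 4 each). It lay at 10.3% to 13.4% in KO KD 24 h and 4.94% to 10.2% in WT KD 24 h libraries, which did not overlap. The groups fasted for 4 h on CD had the lowest shares and the least spread. A fit with the log2 share as a covariate, chosen after seeing the data, is given beside some of the results and for the others in the section on processing. For this fit and the other alternatives the percentage of all genes that passed is not given. Their counts therefore show only how a result depends on the setting. Where the share differs with the groups, its part and that of the groups cannot be told apart.

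Between genotypes, subunit genes passed the test on KD at 24 h, and in the other 3 conditions they did so under some alternatives. Genes passed at an adjusted p under 0.05 in edgeR's quasi-likelihood test with adjustment over all genes. On KD at 24 h, 7 genes were higher in KO than in WT livers, against 2.00% of all genes, and 0 were lower, against 1.95%; the log2 fold change was positive for 78 of 81, with a median of 0.44. The other 74 did not pass. At an unadjusted p under 0.05, 43 of the 81 were higher, where 2772 of all 14438 genes passed in either direction. The median log2 fold change of all tested genes was -0.03. For transcripts under 1000 bases it was 0.48 for subunit genes and 0.22 for all tested genes. In 25 of the 81 genes every KO library lay above every WT library. The share of all genes that separated in this way was not computed, so nothing is read from this count. On CD at 4 h, 0 genes passed in either direction (1.38% of all genes were higher and 0.450% lower), with 1 higher at an unadjusted p and 1 by DESeq2. On CD at 24 h, 0 passed (0.942% and 1.13%), again with 1 unadjusted and 1 by DESeq2, but with the 4 libraries that hold muscle transcripts left out 3 were higher and 5 lower. That alternative gave 1 gene each on CD at 4 h and on KD at 4 h, and 10 higher on KD at 24 h. On KD at 4 h, 0 passed (1.84% and 0.977%), with 4 higher and 1 lower unadjusted and 1 by DESeq2. Without the 5 libraries nearer to the other diet, 7 were higher on KD at 24 h, 5 of them among the 7 above, 3 on KD at 4 h, 1 on CD at 24 h and 1 on CD at 4 h.

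The 7 genes came from 4 complexes. Ndufa9, an accessory subunit at the join of the complex I arms (ENSMUSG00000000399, chromosome 6, 126821863 to 126849144, minus strand), was at 136, 140, 126 and 126 CPM in KO KD 24 h livers and at 84.6, 91.3, 101 and 105 CPM in WT KD 24 h livers. All 4 KO livers were higher, with a log2 fold change of 0.47 ± 0.11 (SE; adjusted p = 0.0179), and the call was kept in 14 of 16 alternative settings. Ndufb3, a membrane arm subunit (ENSMUSG00000026032, chromosome 1, 58586384 to 58595964, plus strand), was at 104, 105, 91.2 and 100 CPM in KO KD 24 h against 78.7, 61.1, 50.1 and 75.6 CPM in WT KD 24 h (0.59 ± 0.17, adjusted p = 0.0393). The groups did not overlap, but the call was kept in 5 of 16 settings.

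Ndufa10, an accessory subunit of complex I, averaged 153 CPM in KO KD 24 h and 114 CPM in WT KD 24 h (0.42 ± 0.11, adjusted p = 0.0332). Ndufs3, a core subunit near the coenzyme Q site, averaged 140 and 109 CPM in the same order (0.36 ± 0.10, adjusted p = 0.0400). Both were without overlap. Uqcrc2 was at 268, 283, 236 and 246 CPM in KO KD 24 h and at 165, 208, 205 and 202 CPM in WT KD 24 h (0.41 ± 0.11, adjusted p = 0.0393). Atp5g3 was at 532, 531, 520 and 636 CPM in KO KD 24 h and at 425, 343, 346 and 450 CPM in WT KD 24 h (0.50 ± 0.14, adjusted p = 0.0344). None of these 4 had been related to the mitochondrial share within groups. The median log2 fold change was alike across complexes: 0.42 for I, 0.35 for II, 0.47 for III, 0.48 for IV and 0.42 for V.

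The count of 7 moved with single libraries. It was 1, 0, 4 and 2 without KO KD 24 h replicates 1, 2, 3 and 4, and 17, 0 and 2 without WT KD 24 h replicates 1, 2 and 3. With replicate 4 of KO KD 24 h and of KO CD 24 h both left out it was 2, with the 8 libraries of this contrast alone 2, and by DESeq2 17. With the mitochondrial share as a covariate, 12 genes were higher and 0 lower, 4 of the 7 remained, and the median log2 fold change was 0.13. These 12 included genes negatively related to the share, such as Sdha (0.76 ± 0.12, adjusted p = 0.00021), Uqcrc1 (0.56), Atp5a1 (0.54) and Ndufv1 (0.52), beside Ndufa9 (0.61 ± 0.10, adjusted p = 0.00027). Macrophage markers were lower in KO KD 24 h livers for 6 of 11 genes, against 1.95% of all genes. Their sums were 194 to 324 CPM in KO KD 24 h and 407 to 660 CPM in WT KD 24 h, and their part in the result was not tested.

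Averaged over the 4 conditions, 5 genes were higher in KO livers (4.59% of all genes) and 0 lower (4.99%), with a median log2 fold change of 0.15. They were Cox6b2 (1.69 ± 0.35, adjusted p = 0.0013; a fitted value that depends on the prior count, since WT CD 4 h livers had 1 or 2 counts each), Ndufb3 (79.0 CPM in KO and 61.9 CPM in WT; 0.34 ± 0.08, adjusted p = 0.00671), Ndufa9 (118 and 101 CPM; 0.22 ± 0.06), Uqcrc2 (235 and 205 CPM; 0.20 ± 0.06) and Ndufa10 (144 and 127 CPM; 0.19 ± 0.06). For Cox6b2 and Ndufa9 the call was kept in every setting, and for Ndufb3 in all but the one without the 5 libraries nearer to the other diet (adjusted p = 0.051). With the mitochondrial share as a covariate the count was 9. Leaving out KO CD 24 h replicate 4 gave a count of 8, and leaving out either KO KD 4 h replicate 1 or WT CD 24 h replicate 1 gave 9. Macrophage markers were lower in KO livers for 10 of 11 genes on this average, against 4.99% of all genes.

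Cox6b2 had the largest fold changes outside the muscle isoforms. It encodes an isoform of the complex IV subunit at the face of the intermembrane space (ENSMUSG00000051811, chromosome 7, 4751792 to 4753094, minus strand). In KO livers it was at 5.18, 4.18, 3.5 and 3.0 CPM (KD, 24 h), 2.75, 2.35, 3.4 and 3.92 CPM (CD, 24 h), 2.15, 1.62, 1.4 and 1.46 CPM (KD, 4 h), and 0.799, 0.719, 0.977 and 0.661 CPM (CD, 4 h). In WT livers it was at 1.08, 0.977, 0.435 and 0.501 CPM (KD, 24 h), 15.9, 2.44, 0.68 and 1.18 CPM (CD, 24 h), 0.854, 0.134, 0.582 and 0.358 CPM (KD, 4 h), and 0.0633, 0.0604, 0.0556 and 0.123 CPM (CD, 4 h). KO libraries lay above all WT libraries in 3 of the 4 conditions, the exception being CD at 24 h, where WT replicate 1 was the highest of all 32.

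The genotype difference of Cox6b2 passed on KD at 24 h (2.40 ± 0.62 on the log2 scale, adjusted p = 0.0246, kept in 10 of 16 settings). On KD at 4 h its mean was 1.66 CPM in KO livers against 0.482 CPM in WT livers (1.82, adjusted p = 0.136). On CD at 4 h the 70 counts in KO and 5 counts in WT livers gave a ratio of 10.8 (95% exact interval 4.43 to 34.4, counting error only; adjusted p = 0.0612). Its fasting response on CD in WT livers had 426, 33, 10 and 16 counts at 24 h and 1, 1, 1 and 2 counts at 4 h. That is a ratio of 93.7 (39.9 to 290), or 17.3 (7.02 to 55.3) without the first 24 h library. With all libraries the adjusted p in edgeR's test was 5e-06. The first library also holds muscle transcripts, whose part in its high value was not tested; in the other 3 libraries with muscle transcripts Cox6b2 was at 2.75, 2.35 and 1.46 CPM, against 3.4 and 3.92 CPM and 1.4 to 2.15 CPM in the rest of their groups.

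Few subunit genes passed the test for diet within a condition, and most of those did so in WT livers after 4 h. There, 4 genes were higher on KD than on CD (10.8% of all genes) and 3 lower (16.5%), with a median log2 fold change of 0.26. At an unadjusted p 23 were higher and 8 lower, where 5794 of all 14438 genes passed in either direction. For transcripts under 1000 bases the median log2 fold change was 0.31 for subunit genes and 0.38 for all tested genes. Over 2000 bases it was -0.28 and -0.05 in the same order. The 3 lower genes belong to complexes II and V. Sdha was at 249, 352, 302 and 432 CPM on KD and at 603, 623, 545 and 531 CPM on CD (-0.79 ± 0.25, adjusted p = 0.0211), and every KD liver lay below every CD liver. Atp5a1 had a mean of 707 CPM on KD, against 1020 CPM on CD (-0.53 ± 0.18, adjusted p = 0.0295), and Atp5d 209 and 291 CPM (-0.48 ± 0.14, adjusted p = 0.0109). These 2 were also without overlap.

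The higher ones were Atp5s, Atp5sl, Cox7a2l and Ndufb3. Atp5sl, now called Dmac2 and known in human cells as an assembly factor of the complex I membrane arm (ENSMUSG00000057229, chromosome 7, 25619414 to 25625551, plus strand), was at 62.9, 52.3, 58.2 and 48.6 CPM on KD and at 35.9, 32.8, 43.4 and 39.3 CPM on CD (0.55 ± 0.13, adjusted p = 0.0032). All KD livers were higher, and the call was kept in 16 of 16 settings. Cox7a2l was at 208, 142, 138 and 134 CPM on KD and at 96.8, 96.9, 101 and 84.0 CPM on CD (0.71 ± 0.25, adjusted p = 0.0344). With the mitochondrial share as a covariate it stood at -0.05 (adjusted p = 0.869), and the contrast then had 1 gene higher, Atp5sl, and 9 lower, with a median of -0.26. Ndufb3 had a mean of 70.4 CPM on KD, against 50.2 CPM on CD (0.49 ± 0.17, adjusted p = 0.0298).

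The diet count in WT livers after 4 h was 2 and 11 when WT KD 4 h replicates 1 and 4 were left out in turn, and 3 without WT CD 4 h replicate 2. It came to 15 by DESeq2, 34 with these 8 libraries alone 19 without the 4 libraries holding muscle transcripts and 19 without the 5 nearer to the other diet, none of which belongs to these groups. Hepatocyte markers were lower on KD for 4 of 8 genes here, against 16.5% of all genes. Their sums were 31500 to 55200 CPM on KD and 69200 to 85400 CPM on CD, and their part in the result was not tested. The mitochondrial shares did not overlap either, at 8.62% to 15.1% on KD and 5.71% to 6.59% on CD.

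In the other diet contrasts few genes passed. In KO livers after 4 h, 3 genes were higher on KD (2.56% of all genes) and 0 lower (4.66%). Atp5s was at 7.8, 8.06, 10.6 and 9.31 CPM on KD and at 4.75, 5.99, 5.0 and 4.82 CPM on CD, all KD livers higher (0.79 ± 0.17, adjusted p = 0.00378), a call kept in every setting. The others, Cox6a2 and Cox8b, rested on KO KD 4 h replicate 4, and the count was 1 without it and 1 without any of KO CD 4 h replicates 1 to 4. In WT livers after 24 h, 0 genes were higher on KD (1.32%) and Cox6b2 was lower (1.46%), at 0.747 CPM against 5.06 CPM on CD (-2.79 ± 0.61, adjusted p = 0.0107). That call was lost without WT CD 24 h replicate 1. The count was 7, all lower, without the 5 libraries nearer to the other diet, and 5 with the mitochondrial share as a covariate. In KO livers after 24 h, 0 genes passed higher (0.00693% of all genes) or lower (0%), with 15 higher and 2 lower at an unadjusted p and 2 by DESeq2. Unadjusted, 1766 of all 14438 genes passed in either direction there.

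Averaged over the 4 conditions, 19 genes were higher on KD (12.4% of all genes) and 4 lower (16.7%). By symbol, complex I gave 12 of those higher, Ndufa4 among them, and none lower. Complex V gave 4 higher, Atp5s and Atp5sl among them, and 3 lower. Complex II gave 1 and 1, and complexes III and IV 1 higher each. For transcripts under 1000 bases the median log2 fold change was 0.21 for subunit genes and also 0.21 for all tested genes. Over 2000 bases it was -0.12 for subunit genes and -0.07 for all tested genes. The part of transcript length in these calls was not tested. The largest increases were those of Ndufb4 (77.2 CPM on KD and 54.2 CPM on CD; 0.53), Cox6c (433 and 313 CPM; 0.51), Atp5s (10.5 and 7.84 CPM; 0.48 ± 0.08, adjusted p = 0.00011) and Ndufs4 (111 and 81.2 CPM; 0.46). The lower ones were Sdha (378 and 491 CPM; -0.35), Atp5a1 (794 and 993 CPM; -0.32), Atp5b (1020 and 1250 CPM; -0.29) and Atp5d (253 and 295 CPM; -0.23). Ndufb3 (0.41 ± 0.08), Ndufs8, a core iron-sulfur subunit (76.7 and 59.5 CPM; 0.36 ± 0.08, adjusted p = 0.00117), and Atp5s kept their calls in every setting. With the mitochondrial share as a covariate 3 were higher and 4 lower, the median log2 fold change was -0.03 against 0.17 without it, and Cox6c and Ndufa4 stood at 0.00. Without the 4 libraries holding muscle transcripts the count was 10, and without the 5 nearer to the other diet Sdha no longer passed (-0.32, adjusted p = 0.0621).

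Longer fasting was examined within each genotype and diet. On CD, 5 genes were higher after 24 h than after 4 h in KO livers (8.97% of all genes) and 1 lower (9.75%). At an unadjusted p 26 were higher and 5 lower, where 5012 of all 14438 genes passed in either direction. Atp5s was at 10.6, 11.9, 11.7 and 11.6 CPM after 24 h and at 4.75, 5.99, 5.0 and 4.82 CPM after 4 h (1.16 ± 0.17, adjusted p = 4e-05). The groups were far apart, and the call was kept in every setting. Cox7a2l averaged 164 and 92.5 CPM in the same order (0.82 ± 0.25, adjusted p = 0.0232) and Cox6b2 3.11 and 0.789 CPM (1.96 ± 0.59, adjusted p = 0.0209). Sdha was the lower one, at 537, 398, 265 and 270 CPM after 24 h and 619, 688, 598 and 630 CPM after 4 h (-0.79 ± 0.25, adjusted p = 0.0287), and stood at -0.43 (adjusted p = 0.4) without the 5 libraries nearer to the other diet, 2 of which are these last 24 h libraries. The remaining calls, Cox6a2 and Cox8b, lay in the 24 h libraries with muscle transcripts, replicates 1 and 2. The count was 23 when KO CD 24 h replicate 1 was left out, and 3, 3 and 2 without KO CD 4 h replicates 1, 2 and 4. Leaving out all 4 libraries with muscle transcripts gave 29, against 13 by DESeq2 and 10 with these 8 libraries alone. The mitochondrial shares did not overlap, at 6.46% to 15.5% after 24 h and 5.22% to 5.63% after 4 h.

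On KD, 3 genes were higher after 24 h in KO livers (4.56% of all genes) and 1 lower (4.82%), with a median of 0.36. At an unadjusted p 30 were higher and 2 lower, where 3840 of all 14438 genes passed in either direction. Cox6a1 was at 647, 621, 658 and 613 CPM after 24 h and at 367, 427, 515 and 416 CPM after 4 h (0.56 ± 0.14, adjusted p = 0.011), a call kept in every setting. Cox8a, the liver isoform of the smallest complex IV subunit, averaged 347 and 253 CPM (0.46 ± 0.13, adjusted p = 0.0273), and Atp5s 13.9 and 8.93 CPM (0.64 ± 0.16, adjusted p = 0.0132). Cox6a2 was the lower one, through the 15.3 CPM of KO KD 4 h replicate 4. The count was 2, 1 and 2 without KO KD 24 h replicates 1, 2 and 4, 18 without KO KD 4 h replicate 3, 2 without replicate 4 of both KO KD 24 h and KO CD 24 h, 7 without the 5 libraries nearer to the other diet, 11 by DESeq2 and 15 with the mitochondrial share as a covariate.

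In WT livers on CD, Cox6b2 and Atp5s were higher after 24 h (8.89% of all genes) and Ndufa4l2 lower (9.61%), at 1.12 CPM against 2.28 CPM (-0.98 ± 0.31, adjusted p = 0.0242). Atp5s was at 11.3, 11.2, 7.89 and 7.77 CPM after 24 h and at 4.05, 4.65, 5.56 and 6.63 CPM after 4 h (0.87 ± 0.17, adjusted p = 0.000407). On KD, 0 genes were higher (6.26%) and Atp5sl was lower (4.65%), at 40.2, 28.0, 38.7 and 34.8 CPM after 24 h against 62.9, 52.3, 58.2 and 48.6 CPM after 4 h (-0.65 ± 0.13, adjusted p = 0.00193). Both groups were apart in these 2 genes, and the calls were kept in every setting. Leaving out WT CD 24 h replicate 4 gave a CD count of 7, DESeq2 gave 6 and the mitochondrial share as a covariate 5. Without the 5 libraries nearer to the other diet, among them WT CD 24 h replicates 3 and 4, 19 genes were higher on CD and 1 lower, 2 of the 3 calls remained, and Ndufa4l2 stood at -0.55 (adjusted p = 0.253). On KD the log2 fold change was positive for 27 of 81 genes, where the mitochondrial share averaged 7.44% after 24 h and 11.7% after 4 h, and with the share as a covariate 18 genes were higher and 2 lower.

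Averaged over the 4 conditions, 26 genes were higher after 24 h (17.3% of all genes) and 1, Sdha, lower (17.8%; 373 CPM after 24 h and 496 CPM after 4 h, -0.37 ± 0.13, adjusted p = 0.0216). By symbol, complex I gave 13, Ndufa4 among them, and complex IV 7. Complex V gave 4, Atp5s among them, and complexes II and III 1 each. For transcripts under 1000 bases the median log2 fold change was 0.22 for subunit genes and 0.19 for all tested genes. Cox6b2 (2.47 ± 0.35, again dependent on the prior count; adjusted p = 2.76e-06), Atp5s (11.4 and 6.98 CPM; 0.74 ± 0.08, adjusted p = 7.32e-08), Cox6c (430 and 316 CPM; 0.47) and Ndufs4 (111 and 81.5 CPM; 0.45) had the largest increases. Atp5s encodes a relative of the coupling factor B of ATP synthase (ENSMUSG00000054894, chromosome 12, 69724962 to 69744658, plus strand), and its group means lay between 5.14 CPM in KO CD 4 h and 13.9 CPM in KO KD 24 h. The 27 calls became 16 with the mitochondrial share as a covariate and 17 without the filter on low counts. Endothelial markers were lower after 24 h for 8 of 9 genes and higher for 1, and hepatocyte markers higher for 4 of 8 and lower for 1. Of all genes 17.8% were lower and 17.3% higher. Endothelial sums were 219 to 276 CPM in KO KD 24 h and 292 to 447 CPM in KO KD 4 h libraries. The part of these cells in the result was not tested.

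**Figure D4:**
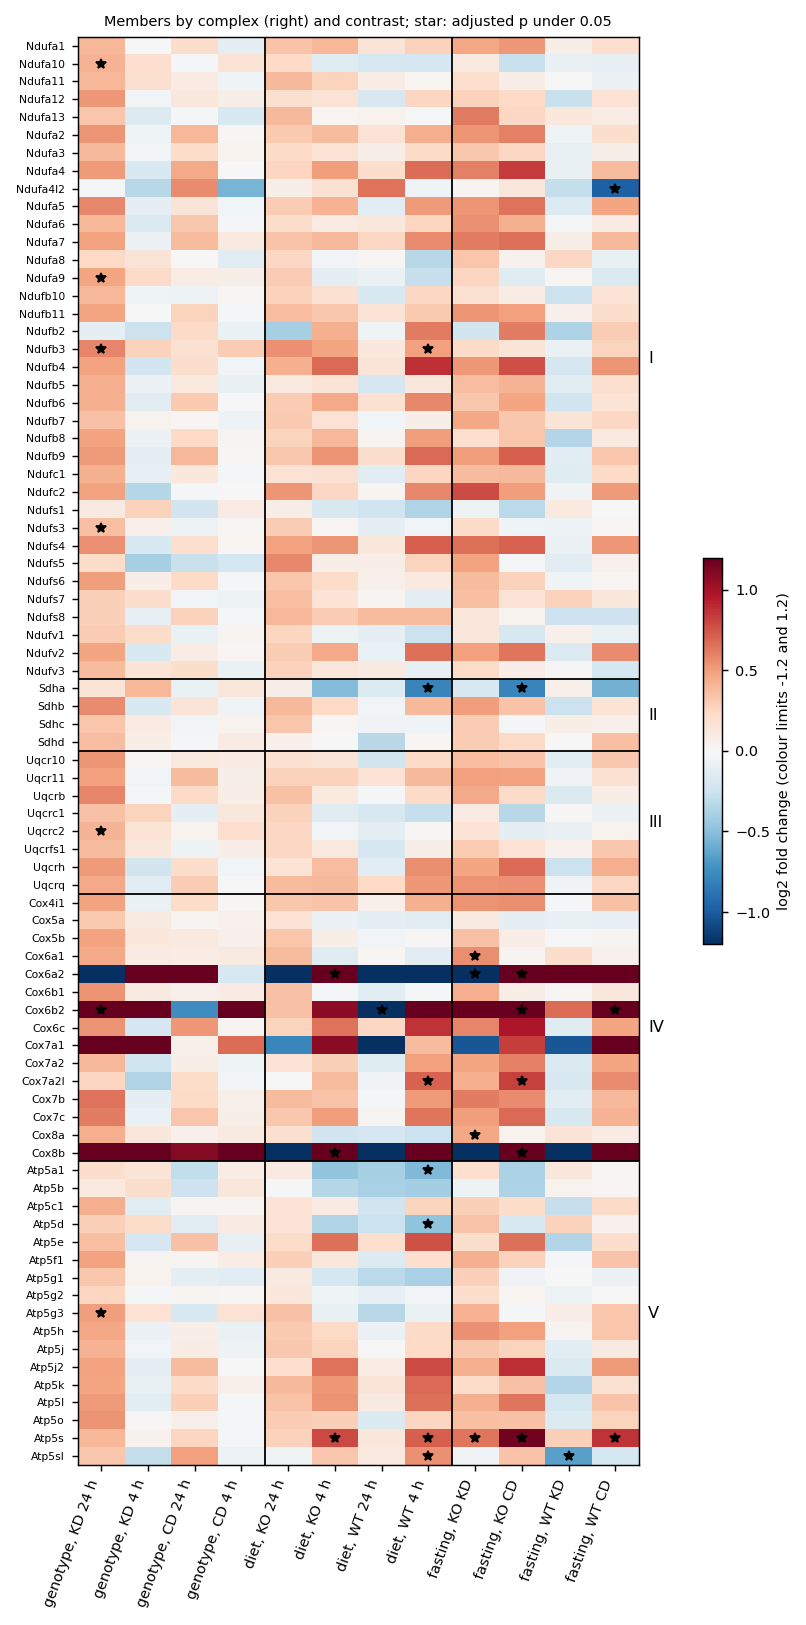
Log2 fold changes (colour, limited to -1.2 and 1.2) of the tested genes but 1, grouped by complex from top to bottom, in the 12 pairwise contrasts; stars mark an adjusted p under 0.05. The genotype column for KD at 24 h is mostly positive but has 7 stars, and Atp5s is starred in 5 columns.

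Over the 12 pairwise contrasts 18 genes passed at least once, and 63 in none. By symbol they were 5 of complex I, 1 of complex II, 1 of complex III, 6 of complex IV and 5 of complex V. The 5 of complex V include Atp5s and Atp5sl. Atp5s passed in 5 contrasts (2 of diet and 3 of fasting), Cox6b2 in 4 and Cox6a2 in 3. Ndufb3, Sdha, Cox7a2l, Cox8b and Atp5sl passed in 2 each. These contrasts share libraries, so they are not independent of each other.

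Tests of the differences between contrasts called few subunit genes. The diet response differed between 24 h and 4 h of fasting for 1 gene in WT livers, Cox6b2 (-5.32 ± 1.14 on the log2 scale, again dependent on the prior count, adjusted p = 0.00217; 12.9% of all genes passed). In KO livers it differed for 2 genes, Cox6a2 and Cox8b (1.39% of all genes), which are muscle isoforms. The genotype difference depended on diet for 0 genes at 4 h (0.104% of all genes; 0 at an unadjusted p and 0 by DESeq2) and for 0 genes at 24 h (0%; 12 at an unadjusted p, all with a more positive difference on KD, and 0 by DESeq2). It depended on fasting time for 0 genes on CD (0.610% of all genes; 2 higher and 1 lower at an unadjusted p, and 1 by DESeq2) and for 0 genes on KD (0.256%; 8 higher and 1 lower, and 1 by DESeq2). Unadjusted, 1120 of all 14438 genes passed for genotype by diet at 4 h and 1221 at 24 h. For genotype by fasting 1634 passed on CD and 2030 on KD. For KD at 24 h the interaction was positive for 77 of 81 genes with diet (median 0.33) and for 76 of 81 with fasting (median 0.45). Without the 4 libraries holding muscle transcripts the genotype difference depended on diet at 24 h for 3 genes, all more positive on KD, and on fasting time on CD for 3 genes, all lower. Without the 5 libraries nearer to the other diet these counts were 1 and 1, and the diet response in WT livers differed between fasting times for 14 genes, 1 higher and 13 lower after 24 h.

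Muscle isoforms of complex IV were high in the libraries with muscle transcripts. Cox6a2 reached 6.4 and 15.9 CPM in the first 2 KO CD 24 h replicates, 15.3 CPM in KO KD 4 h replicate 4 and 6.96 CPM in WT CD 24 h replicate 1, and at 0 to 0.253 CPM in the other 28 libraries. Cox8b was at 3.01, 12.7, 21.2 and 6.85 CPM in the same 4 and at 0 to 0.62 CPM elsewhere. Cox7a1 was at 3.22, 8.33, 13.9 and 11.3 CPM in these 4 and at 0.349 to 3.87 CPM elsewhere, so that 1 of the 4 lay within the range of the rest. The calls of Cox6a2 and Cox8b for diet in KO livers after 4 h, and of Cox6a2 for fasting in KO livers on KD, were lost without these libraries.

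**Figure D5:**
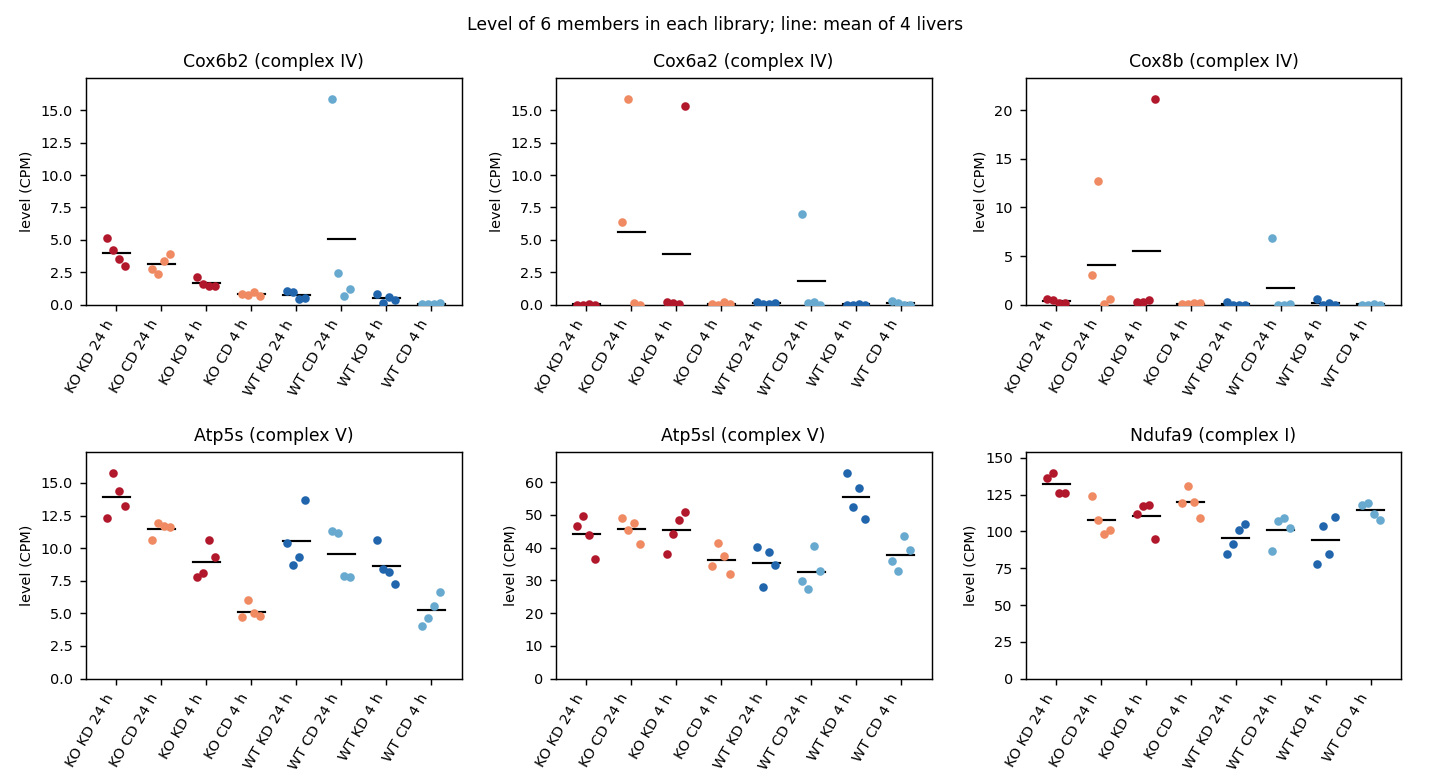
Level (CPM) of 6 genes in each library by group; points are livers and lines are means of 4. Cox6a2 and Cox8b are near 0 outside the 4 libraries with muscle transcripts, while Cox6b2 lies at 0.0556 to 0.123 CPM in WT CD 4 h and at 0.661 to 0.977 CPM in KO CD 4 h livers.

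Other genes of the pathway were examined as lists, in which members were counted by the same test. Of the 12 tested mitochondrially encoded subunits, 3 were higher in KO livers on KD at 24 h and 0 lower, with a median log2 fold change of 0.54, among them mt-Nd1 (15200 CPM in KO and 7750 CPM in WT; 0.97 ± 0.27, adjusted p = 0.04). Of all genes 2.00% were higher and 1.95% lower in that contrast. On KD against CD, 4 mitochondrially encoded subunits were higher in WT (10.8% of all genes) and 2 in KO livers (2.56%) after 4 h. After 24 h against 4 h, 8 were higher in KO livers on CD (8.97% of all genes). In WT livers on CD 1 was higher (8.89%), in KO livers on KD 1 (4.56%), and on average 8 were (17.3%). In none of the 12 pairwise contrasts was a mitochondrially encoded subunit lower. They make up the share discussed above, so their level and the share are the same measure.

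Enzymes of the tricarboxylic acid cycle, which feed electrons to complexes I and II, were counted too: 6 of 14 were lower on KD on average (against 16.7% of all genes) and none higher (12.4%), with Cs, citrate synthase, at 88.9 CPM on KD and 140 CPM on CD (-0.60) and Ogdh at -0.56. In KO livers 4 of 14 were higher on average (4.59% of all genes) and 2 on KD at 24 h (2.00%). After 24 h of fasting 6 of 14 were higher and 1 lower in WT livers on CD, against 8.89% and 9.61% of all genes. Of 15 complex I assembly factors 8 were higher and 1 lower on KD on average, against 12.4% and 16.7% of all genes, and 4 higher and 1 lower in WT livers after 4 h, against 10.8% and 16.5%, with Ndufaf4 at 55.7 CPM on KD and 25.3 CPM on CD (1.14 ± 0.26, adjusted p = 0.00188). Of 22 complex IV assembly factors 4 were higher and 1 lower on average, and 3 higher in WT livers after 4 h, with Coa6, a copper-handling assembly factor, at 65.3 CPM on KD and 20.1 CPM on CD (1.70 ± 0.37, adjusted p = 0.00122). For complexes II, III and V, 2 of 4, 3 of 7 and 1 of 5 factors were higher on average and none lower. The shares of all genes given beside the complex I factors apply to the factors of complexes II to V as well.

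Of 16 electron carriers and their entry enzymes, 4 were higher in KO livers on KD at 4 h (1.84% of all genes) and 0 lower (0.977%). Among the 4 was Etfdh, which passes electrons from fatty acid oxidation to coenzyme Q, at 327 CPM in KO and 172 CPM in WT livers (0.93 ± 0.23, adjusted p = 0.0186). Of 9 nucleotide and phosphate carriers and uncoupling proteins, 1 was higher in that contrast, Ucp3, at 4.34 CPM in KO and 0.126 CPM in WT livers. This WT mean lay within the 0.112 to 0.23 CPM to which 3 counts correspond. KO KD 4 h replicate 4 is among the libraries with muscle transcripts (747 CPM). The part of that library in the KO mean of Ucp3 was not tested. Among 18 regulators of mitochondrial biogenesis, Esrrg, an estrogen-related receptor, was higher in KO livers in all 4 conditions: 12.9 CPM in KO and 5.50 CPM in WT on KD at 24 h (1.23), 12.0 and 4.01 CPM on CD at 24 h (1.61), 9.34 and 3.60 CPM on KD at 4 h (1.38), and 7.52 and 2.11 CPM on CD at 4 h (1.84). KO libraries of Esrrg lay above WT libraries in each condition. On KD at 24 h 2 regulators were lower in KO livers (1.95% of all genes), Pprc1 (-0.88) and Gabpb1 (-0.46). Ppargc1a, the coactivator PGC-1alpha, was lower on KD in WT livers after 24 h (10.4 CPM on KD and 24.9 CPM on CD; -1.27), where 2 of the 4 CD livers, at 31.1 and 48.8 CPM, held most of the difference. After 24 h against 4 h on CD, 5 of the 18 regulators were higher and 0 lower in WT livers (8.89% of all genes were higher), and likewise 5 and 0 in KO livers (8.97%).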

How the data were processed

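The deposited table holds read counts and FPKM values per gene for 32 libraries. Per the submitters' processing notes, the tools behind these counts were TopHat2 2.0.12, Bowtie2 2.2.3 and HTSeq 0.6.1, on GRCm38 (mm10). Paired-end libraries came from an Illumina TruSeq RNA kit, per the labels' protocols. For the annotation release and strand setting, the value is not given in the sources used here. The deposited FPKM values equalled count over length and total in 100.0% of values above 0, within 0.1%, and were not used further.

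Counts were tested with edgeR 4.0.16 (R 4.3.3; quasi-likelihood test, TMM, filterByExpr) with 8 group means and a spread shared by 32 libraries (common biological coefficient of variation 0.235, 24 residual degrees of freedom). P-values were two-sided and adjusted by Benjamini-Hochberg over 14438 genes in each of 12 pairwise contrasts, 3 averages and 6 interactions, with a threshold of 0.05. The standard error, log2 fold change over root F, restates the test. Levels are TMM-normalised CPM. Alternatives used DESeq2 1.42.0, RLE size factors, no filter, only the groups compared, and sets of libraries left out. Relations to the mitochondrial share were computed with numpy 2.4.6 in Python 3.11.15. Transcript lengths are those of the principal transcript in GENCODE M21, known for 13096 of the tested genes. Promoters came from RefSeq (GRCm38.p6).

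The genes, lists (197 symbols, 196 matched) and alternatives were chosen with earlier results of these data known, and the covariate, the motifs and the omission of 5 libraries after seeing the data. Genes named are up to 4 called per direction and contrast by size, the highest and lowest per length of each complex, the isoform families, and up to 3 called genes of each other list per contrast; Slc27a2 checks the genotype. The genes described for the relation to the mitochondrial share, for length and for the count of calls kept were chosen after their values were seen.

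Each library is 1 animal, numbered in order of deposit. The 48 pairs of replicates had a chi-square per degree of freedom of 7.5 to 236, so none agreed within sampling noise. Counting intervals cover counting error only. On simulated counts for the KO and WT contrast on KD at 24 h (14185 genes), 7.46% of genes changed 1.5-fold, 62.7% of those changed 2-fold and 89.4% of those changed 4-fold were recovered. Values of some genes that met the rule for named genes are not reported here.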

Additional observations from a re-analysis of the deposited data

Results flagged for a closer look

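Of 248 groups of 4 libraries examined, 21 held a library far from the other 3, where chance alone gives about 5% of groups. Among them were 2 of the 4 libraries with muscle transcripts. Cox6a2 was at 15.3 CPM in KO KD 4 h replicate 4 (others 0.0636 to 0.215) and at 6.96 CPM in WT CD 24 h replicate 1 (others 0 to 0.204). Cox8b was at 21.2 CPM (others 0.224 to 0.445) and 6.85 CPM (others 0 to 0.074) in the same 2 libraries, and Cox7a1 at 13.9 CPM (others 1.25 to 2.29) and 11.3 CPM (others 0.592 to 1.55). WT CD 24 h replicate 1 also stood apart for Cox6b2, at 15.9 CPM (others 0.68 to 2.44), and Atp5a1, at 796 CPM (others 1090 to 1120). The complex II sum of KO KD 4 h replicate 4 was 970.4 CPM (others 1102 to 1121).

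KO KD 24 h replicate 4, one of the libraries near the other diet, was high for Atp5g3 at 636 CPM (others 520 to 532), Cox8a at 389 CPM (others 331 to 335) and the complex IV sum at 4330 CPM (others 3733 to 3773). KO CD 24 h replicate 4, another of them, was low for Atp5g3 at 359 CPM (others 452 to 470). WT KD 4 h replicate 1, with the second highest mitochondrial share of all libraries (15.1%), was high for Cox7a2 at 249 CPM (others 147 to 155), Cox7a2l at 208 CPM (others 134 to 142) and the complex IV sum at 3562 CPM (others 2492 to 2668). The remaining ones were Atp5g2 at 92.2 CPM in KO CD 4 h replicate 2 (others 77.2 to 78.5), Cox7a1 at 3.01 CPM (others 1.97 to 2.06) and Ndufa4l2 at 2.52 CPM (others 1.13 to 1.27) in KO CD 4 h replicate 3, and Uqcrc2 at 165 CPM in WT KD 24 h replicate 1 (others 202 to 208) and 218 CPM in WT CD 4 h replicate 2 (others 201 to 202).

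The diet response differed between fasting times for 3 genes. For Cox6b2 in WT livers the interaction was -5.32 ± 1.14 (edgeR, adjusted p = 0.00217) and passed under all 24 alternatives. For Cox8b (-8.92, adjusted p = 0.0364) and Cox6a2 (-13.47, adjusted p = 0.0114) in KO livers the fitted values depend on the prior count, since most libraries are near 0, and the calls were lost without KO KD 4 h replicate 4.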

How the results depend on the processing

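No paired analysis was possible because replicate numbers follow the order of deposit and pair no animals. Of 90 calls of subunit genes, 24 passed under every alternative that was run, and of the named genes' values 978 kept direction and side of the threshold, 194 no longer passed and 1 reversed: Cox7a2l for diet in WT livers after 4 h, at -0.05 with the mitochondrial share as a covariate. Counts of genes passing that moved by over 1.5 times are given next. For each the cause was not tested unless fewer genes or libraries entered. The percentage of all genes that passed under each alternative is not given, so the counts show only dependence on the setting. With RLE size factors 1 of 21 counts moved (genotype on CD at 24 h, 1). Without a filter 5 moved: genotype on CD at 4 h, 1; KD at 4 h, 1; KD at 24 h, 2; genotype on average, 3; fasting on average, 17. By DESeq2 12 moved: genotype on CD at 4 h, CD at 24 h and KD at 4 h, 1 each; KD at 24 h, 17; diet in WT at 4 h, 15, and KO at 24 h, 2; fasting in WT on CD, 6, KO on CD, 13, and KO on KD, 11; genotype on average, 8; genotype by fasting, 1 on CD and 1 on KD. With only the groups compared 6 of 18 moved: genotype on CD at 4 h, 1, and KD at 24 h, 2; diet in WT at 4 h, 34, and at 24 h, 0; fasting in KO on CD, 10; diet by fasting in KO, 0. Without the 4 libraries holding muscle transcripts 10 moved: genotype on CD at 4 h, 1, CD at 24 h, 8, and KD at 4 h, 1; diet in WT at 4 h, 19, WT at 24 h, 0, and KO at 4 h, 1; fasting in KO on CD, 29; diet on average, 10; genotype by diet at 24 h, 3; genotype by fasting on CD, 3. Without 2 of the 5 libraries nearer to the other diet (replicate 4 of KO KD 24 h and of KO CD 24 h) 4 moved: genotype on KD at 4 h, 1, and KD at 24 h, 2; fasting in KO on KD, 2; diet by fasting in KO, 1. Without all 5, an alternative chosen after seeing the data, 11 moved: genotype on CD at 4 h, 1, CD at 24 h, 1, and KD at 4 h, 3; diet in WT at 4 h, 19, WT at 24 h, 7, and KO at 24 h, 1; fasting in WT on CD, 20, and KO on KD, 7; diet by fasting in WT, 14; genotype by diet at 24 h, 1; genotype by fasting on CD, 1. With the share as a covariate 15 moved: genotype on CD at 4 h and at 24 h, 1 each, KD at 4 h, 3, and KD at 24 h, 12; diet in WT at 24 h, 5, and KO at 24 h, 2; fasting in WT on CD, 5, WT on KD, 20, and KO on KD, 15; the averages of genotype, 9, diet, 7, and fasting, 16; diet by fasting in WT, 5, and KO, 4; genotype by fasting on CD, 1.

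Leaving out each library in turn, counts ranged for genotype over 0 to 0 (CD at 4 h), 0 to 1 (CD at 24 h), 0 to 1 (KD at 4 h), 0 to 17 (KD at 24 h) and 4 to 9 (average). They ranged for diet over 2 to 11 (WT at 4 h), 0 to 1 (WT at 24 h), 1 to 4 (KO at 4 h), 0 to 0 (KO at 24 h) and 12 to 36 (average), and for fasting over 2 to 7 (WT on CD), 1 to 1 (WT on KD), 2 to 23 (KO on CD), 1 to 18 (KO on KD) and 19 to 38 (average). Diet by fasting gave 1 to 4 in WT and 0 to 2 in KO, genotype by diet 0 to 0 at both times, and genotype by fasting 0 to 1 on CD and 0 to 0 on KD. The diet average, 23 genes, was 14, 15 and 35 without KO CD 24 h replicates 1, 2 and 3; 35 and 12 without KO KD 4 h replicates 1 and 3; 14 without KO CD 4 h replicate 4; 12, 35 and 15 without WT KD 24 h replicates 1, 3 and 4; 36, 15 and 14 without WT CD 24 h replicates 1, 3 and 4; and 13 without WT KD 4 h replicate 1. Genotype on CD at 24 h gave 1 without WT CD 24 h replicate 3, and on KD at 4 h 1 without KO KD 4 h replicate 3. Diet by fasting in WT gave 4 and 2 without WT KD 24 h replicates 1 and 4 and 2 without WT CD 4 h replicate 4; in KO it gave 0 without KO KD 4 h replicate 4, and 1 without any of KO KD 24 h replicates 1 to 4, KO CD 24 h replicate 2 and KO CD 4 h replicates 1 to 4. Genotype by fasting on CD gave 1 without WT CD 24 h replicate 3 and 1 without replicate 4.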
